A study of Mus musculus with 13 samples.

Results

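Junctions at the switch regions S epsilon and S alpha, which belong to the mouse heavy chain locus of immunoglobulin (IgH) on chromosome 12, are described here. They are all sequenced junctions on that chromosome whose deposited gene label names Se or Sa. S epsilon held 88 junctions and S alpha 3, together 91 of 16455 in 13 libraries. None of the 91 carried a further label, and 0 unlabelled junctions lay inside the span of S epsilon. The libraries came from high-throughput genome-wide translocation sequencing, which reads the sequences (preys) joined to a fixed break (the bait) made by the nuclease I-SceI in a cassette. IgH B cells were splenic B cells of genotype IgH2-28xI activated with anti-CD40/IL-4, in replicates 19, 21 and 23. IgH T cells were splenic T cells of the same genotype activated with ConcanavalinA/IL-2, also in replicates 19, 21 and 23. For c-myc B cells, replicates 14, 36 and 37, the genotype was c-myc25-2xI and the activation again anti-CD40/IL-4. The c-myc fibroblasts, replicates 1 to 4, were SV40-transformed tail cells of genotype c-myc25xI;RosaI-SceI-GR without activation. The IgH bait lay on chromosome 12, the chromosome of S epsilon, and the c-myc bait on chromosome 15. The labels give no ages, and do not say whether replicates were separate animals or cultures, so that the p-values measure only the spread between these libraries.

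Class switch recombination replaces the constant region of an antibody by joining breaks in the repetitive switch region S mu to breaks in a downstream switch region. The breaks begin with activation-induced cytidine deaminase (AID), which deaminates cytosines in transcribed switch DNA and often acts at the palindromic motif AGCT. S epsilon lies before the exons of IgE and S alpha before those of IgA. Stimulation of mouse B cells with anti-CD40 and IL-4 is known to induce switching to IgG1 and IgE, whereas switching to IgA is usually driven by TGF-beta. T cells and fibroblasts do not class switch.

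The libraries held 387 to 2918 junctions each, and 2531, 4347, 6646 and 2931 in IgH B cells, IgH T cells, c-myc B cells and c-myc fibroblasts. By the read names, IgH replicates 19 and 21 of B and T cells shared a sequencing run and replicate 23 of both another, whereas each c-myc B-cell library had a run of its own and the fibroblasts shared one. Replicate 14 of c-myc B cells stood apart. Its prey ended in GG directly before the linker in 228 of 229 junctions on other chromosomes with a recognised linker, or 99.6%, against 7.84 to 25% in the other 12 libraries. All 11 such S epsilon junctions of replicate 14 ended in GG, against 2 of 8 in replicate 36 and 1 of 5 in replicate 37. Its median aligned prey was 49 bases, against 103 and 91 in replicates 36 and 37. The label of this library, like the others, states sonicated DNA, which its GG ends go against, so what its counts mean is uncertain. Its values are marked below, and the group tests that use it are also given without it.

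The sequences below start at the junction and show what the bait joined. They are the prey's own letters from the deposited tables, 5′ to 3′ on the strand stated, with mm9 positions on chromosome 12 and every AGCT in capitals. S epsilon junctions nearest the middle of the IgH B-cell and c-myc B-cell groups, and all 3 S alpha junctions, are shown. A T-cell prey is printed further on, since the middle one of the 3 T-cell preys has a first aligned block of only 4 bases.
S epsilon, IgH B cells replicate 23, + strand, chr12:114514508-114514567: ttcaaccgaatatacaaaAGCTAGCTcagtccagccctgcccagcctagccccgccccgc
S epsilon, c-myc B cells replicate 14, + strand, chr12:114514064-114514115: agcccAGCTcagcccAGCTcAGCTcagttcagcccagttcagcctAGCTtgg
S epsilon, c-myc B cells replicate 36, - strand, chr12:114514048-114514089: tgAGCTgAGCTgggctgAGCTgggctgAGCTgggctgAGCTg
S alpha, c-myc B cells replicate 37, - strand, chr12:114499874-114499933: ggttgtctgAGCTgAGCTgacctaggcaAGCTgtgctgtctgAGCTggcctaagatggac
S alpha, c-myc B cells replicate 36, - strand, chr12:114500606-114500634: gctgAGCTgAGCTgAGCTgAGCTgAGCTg
S alpha, c-myc B cells replicate 36, + strand, chr12:114502660-114502719: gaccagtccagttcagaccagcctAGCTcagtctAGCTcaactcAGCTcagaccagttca
The - strand S epsilon prey repeats AGCT among runs of G, and the first S alpha prey of replicate 36 is AGCT and single G bases in turn. On the + strand the preys are rich in C.

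With the break in IgH itself, S epsilon was joined in every B-cell library and in few T-cell junctions. The B-cell replicates 19, 21 and 23 held 12 of 933, 25 of 1115 and 18 of 483 junctions there, or 1.29% (95% Wilson interval 0.737 to 2.23), 2.24% (1.52 to 3.29) and 3.73% (2.37 to 5.81). The T-cell replicates held 1 of 1253, 2 of 2707 and 0 of 387, or 0.0798%, 0.0739% and 0, where a count of 0 allows up to 0.775%. Every B-cell library lay above every T-cell library. The B-cell mean was 2.42% ± 1.23 (SD, n = 3) and the T-cell mean 0.0512% ± 0.0445 (SD, n = 3), a difference of 2.37 percentage points and a ratio of 47.2 (exact permutation p = 0.1, the smallest that 3 against 3 libraries can give, two-sided, adjusted p = 0.22 over 11 tests). The ratio rests on the 3 T-cell junctions. Of the 5 gene labels with at least 10 junctions in these groups, 4, or 80%, had every B-cell library above every T-cell library. These 4 were S epsilon itself, S gamma 3, the label trans Smu and the label 2x cassette, while S gamma 1 overlapped. S epsilon thus did what most of these labels did, but they are switch regions or cassette and give no background of other genes. The test above leaves out the pairing of B and T libraries by replicate number. Within replicates 19, 21 and 23 the B cells exceeded the T cells by 1.21, 2.17 and 3.73 points (p = 0.25 by an exact sign-flip test, the lowest that 3 pairs allow). Within the run of replicates 19 and 21 the difference was 1.69 points, and on the run of replicate 23 it was 3.73. Intervals and limits here cover counting error only. IgH B and T cells differ at once in cell type and activation, which cannot be told apart.

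With the break at c-myc on another chromosome, S epsilon was again a partner in B cells and not in fibroblasts. Replicates 14, 36 and 37 held 14 of 2918, 11 of 2850 and 5 of 878 junctions, or 0.480% (95% Wilson interval 0.286 to 0.804), 0.386% (0.216 to 0.690) and 0.569% (0.243 to 1.33). Their intervals overlapped, and a difference between the 3 libraries was not tested. The fibroblasts held 0 of 980, 769, 620 and 562 junctions, and 0 of 2931 together allows a share of up to 0.102%. The B-cell mean was 0.478% ± 0.0918 (SD, n = 3), which exceeded the fibroblast mean by 0.478 points (exact permutation p = 0.0571, the smallest that 3 against 4 libraries can give, adjusted p = 0.22). Over the whole group the B-cell share was 0.451%, or 4.41 times the fibroblast limit, a ratio that leaves out the counting error of the B cells. Without replicate 14 the difference was 0.478 points as before (exact permutation p = 0.133) and the ratio to the limit 4.19. Of 6 labels with at least 10 junctions, 4, or 66.7%, did not overlap in this direction, S epsilon among them. B cells and fibroblasts differ at once in cell type, genotype, activation and sequencing run, which cannot be told apart.

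**Figure D1:**
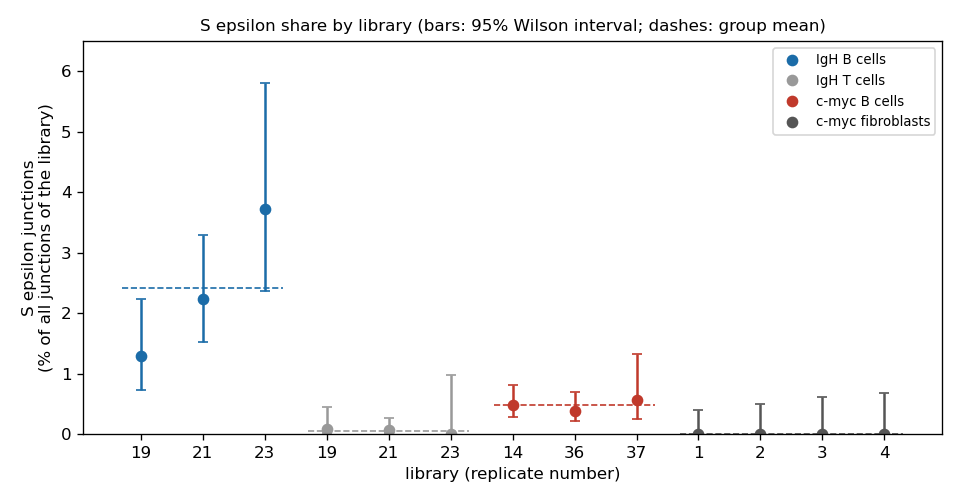
S epsilon junctions as percent of all junctions of a library, 1 point per library with its 95% Wilson interval, and the group mean as a dashed line. IgH B cells lie between 1.29 and 3.73%, c-myc B cells between 0.386 and 0.569%, and IgH T cells and fibroblasts at or near 0.

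Between the baits, S epsilon took more of the junctions when the break was in IgH. The IgH B-cell mean of 2.42% exceeded the c-myc B-cell mean of 0.478% by 1.94 points, a ratio of 5.05, and no library of one group reached the other (exact permutation p = 0.1, the lowest this design allows, adjusted p = 0.22). The difference was 1.29 points without IgH replicate 23 and 1.94 without c-myc replicate 14. Among 8 labels with at least 10 junctions, 4, or 50%, had all IgH B-cell libraries above all c-myc B-cell libraries, S epsilon among them. The baits also differ in how many junctions fall next to the breaks. With 10 kb on either side of the bait and partner peaks left out, S epsilon took 7.10, 11.4 and 21.7% of the remaining junctions in IgH B cells, a mean of 13.4% ± 7.50 (SD, n = 3). The same share averaged 1.72% over c-myc B cells (SD 0.454, n = 3) and 0.874% over IgH T cells (SD 0.763, n = 3). On this scale IgH B cells exceeded c-myc B cells by 11.7 points and T cells by 12.5 points. Locus, cassette and sequencing run differ together between the baits and cannot be told apart.

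The other switch regions give the setting of these shares. In IgH B cells S gamma 3, before the IgG3 exons, held 1.39, 3.50 and 0.621% of junctions in replicates 19, 21 and 23, a mean of 1.84% ± 1.49 (SD, n = 3). S epsilon minus S gamma 3 was -0.107, -1.26 and 3.11 points in these libraries. The mean difference of 0.581 points had no stable sign (exact sign-flip permutation p = 1) and was -0.681 without replicate 23. S gamma 2b held 5 junctions and S gamma 2a 1 in IgH B cells, S mu and S gamma 1 lie in or next to the break windows, and S alpha held 0. In c-myc B cells S mu took 0.788, 2.04 and 2.51% in replicates 14, 36 and 37, and S gamma 1 took 0.308, 2.35 and 3.42%. The highest library exceeded the lowest 11.1-fold for S gamma 1, 3.18-fold for S mu and 1.48-fold for S epsilon. These unequal ranges rest on replicate 14, without which they were 1.45, 1.23 and 1.48-fold. S epsilon minus the mean of S mu and S gamma 1 was thus -1.81 and -2.39 points in replicates 36 and 37 but -0.0685 points in replicate 14. The mean difference was -1.42 points (p = 0.25 by an exact sign-flip test, the lowest that 3 libraries allow, adjusted p = 0.344), or -2.10 without it. In replicate 14, whose prey ended in GG, S epsilon with 14 junctions exceeded S gamma 1 with 9, and whether the fragment ends bear on this was not tested.

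**Figure D2:**
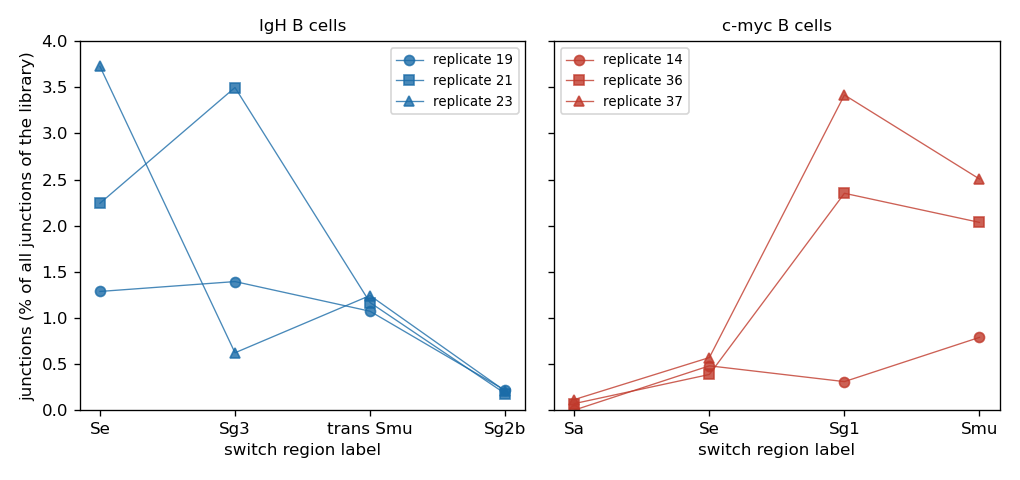
Percent of all junctions of a library at labelled switch regions (x axis) in IgH B cells and c-myc B cells, with a symbol per replicate and lines that only join the points of a library; Se is S epsilon, Sa S alpha and Sg S gamma. In c-myc B cells replicate 14 has S gamma 1 at 0.308%, against 2.35 and 3.42% in the other libraries, while S epsilon lies between 0.386 and 0.569% in all 3. In IgH B cells S epsilon and S gamma 3 change places between libraries.

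Among the switch regions away from both breaks (S epsilon, S alpha, S gamma 3, S gamma 2b and S gamma 2a), S epsilon took a larger part of c-myc joins than of IgH joins. In c-myc B cells it held 14 of 14, 11 of 13 and 5 of 6 such junctions, a mean of 89.3% ± 9.27 (SD, n = 3). In IgH B cells it held 44.4, 37.9 and 78.3% in replicates 19, 21 and 23, a mean of 53.5% ± 21.7 (SD, n = 3). No libraries overlapped, at -35.8 points (exact permutation p = 0.1, the lowest this design allows, adjusted p = 0.22), or -30.4 without c-myc replicate 14. With at least 50 aligned prey bases the difference was -30.9 points (exact permutation p = 0.3). S gamma 3 makes up most of the rest in IgH B cells, and it held 0 of 6646 junctions in c-myc B cells, which allows up to 0.0451%. Per kilobase of the labelled span, c-myc B cells had 10.9 junctions at S epsilon, 12.2 at S gamma 1, 27.0 at S mu and 1.10 at S alpha. Replicate 14 held 14 of the 30 S epsilon but 9 of the 106 S gamma 1 junctions, and without it the values were 5.80, 11.1, 20.99 and 1.10. The near equality of S epsilon and S gamma 1 thus rests on that library and on the spans used. These spans are those between the outermost labelled junctions of all libraries, not annotated lengths. They are 8.703 kb at S gamma 1, where the label also covers the IgH bait, and 2.757 kb at S epsilon. The c-myc B-cell junctions alone spanned 4.997 kb at S gamma 1 and 1.846 kb at S epsilon. The S alpha span is set by its 3 junctions.

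Across the 13 libraries, the share of S epsilon was most like that of the label trans Smu (Pearson r = 0.906), then S gamma 1 (0.610) and S gamma 3 (0.598), among 8 labels with at least 10 junctions. These values describe shares of the same libraries, which share their depth and in groups their bait, and trans Smu occurs only in IgH B cells. In replicates 19, 21 and 23 of these cells trans Smu held 1.07, 1.17 and 1.24%.

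In these libraries a larger share of S epsilon junctions was on the + strand with the IgH bait than with the c-myc bait. A + strand prey at S epsilon reads from the junction toward higher positions, that is toward the IgH bait, whose peak lies at 114577038, a median of 62.6 kb above the S epsilon junctions. In IgH B cells 10 of 12, 20 of 25 and 17 of 18 S epsilon junctions were on the + strand, or 83.3% (exact interval 51.6 to 97.9), 80% (59.3 to 93.2) and 94.4% (72.7 to 99.9). The 3 T-cell junctions were also on the + strand. In c-myc B cells 10 of 14, 4 of 11 and 3 of 5 were, or 71.4% (41.9 to 91.6), 36.4% (10.9 to 69.2) and 60% (14.7 to 94.7). The IgH B-cell mean of 85.9% ± 7.56 (SD, n = 3) exceeded the c-myc B-cell mean of 55.9% ± 17.9 (SD, n = 3) by 29.995 points without overlap of libraries (exact permutation p = 0.1, the lowest this design allows, adjusted p = 0.22). The exact intervals of single libraries did overlap between the baits, as in IgH replicate 19 and c-myc replicate 14. The difference was 37.7 points without c-myc replicate 14 and 20.2 without c-myc replicate 36. S mu and S gamma 1 joined to c-myc were on the + strand in 48 of 103 (46.6%) and 44 of 106 (41.5%) junctions, against 17 of 30 (56.7%) at S epsilon. Without replicate 14 the 3 regions had 45%, 40.2% and 43.75% (7 of 16 at S epsilon).

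**Figure D3:**
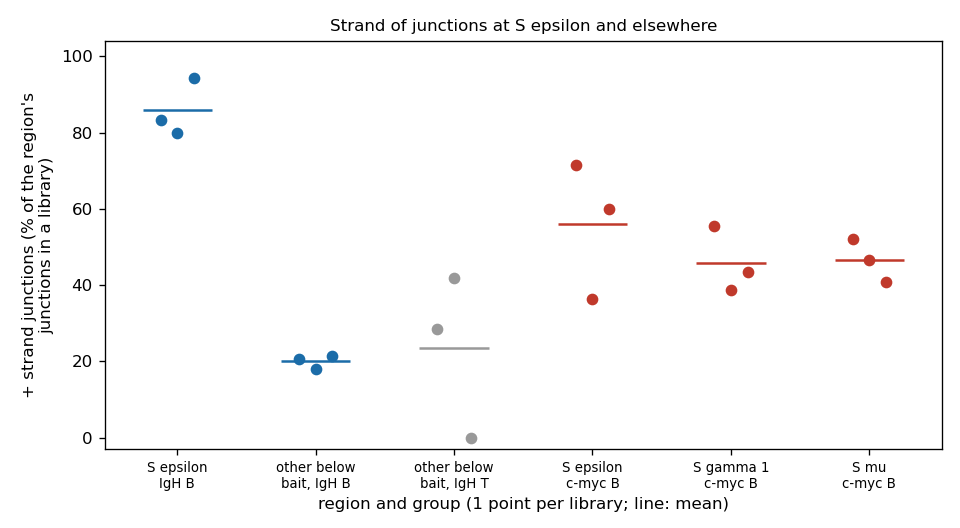
Percent of junctions on the + strand, 1 point per library with the group mean as a line, for S epsilon, for other junctions below the bait window in IgH B and T cells, and for S gamma 1 and S mu in c-myc B cells. S epsilon lies between 80 and 94.4% in IgH B cells and between 36.4 and 71.4% in c-myc B cells, and the other junctions of IgH B cells lie between 17.9 and 21.4%.

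In IgH B cells the orientation of S epsilon also differed from that of other junctions below the bait window, a comparison chosen after the strands had been seen. These others were on the + strand in 6 of 29, 7 of 39 and 3 of 14 junctions, or 20.7, 17.9 and 21.4%. S epsilon exceeded them by 62.6, 62.1 and 73.0 points in replicates 19, 21 and 23, a mean of 65.9 ± 6.17 (SD, n = 3; p = 0.25 by an exact sign-flip test, again the lowest possible, adjusted p = 0.344). Most of the others lie close to the window edge, at a median of 11.1 kb below the bait peak. Only 9 lie at least 40 kb below it in B cells, 2 of them on the + strand, and in T cells 6 of 7 there are on the + strand. The data thus hold few unselected junctions at the distance of S epsilon. S gamma 2b, between the bait and S epsilon, had 0 of 5 junctions on the + strand in B cells, and S gamma 3, on the other side of the bait, 36 of 55. For S gamma 3 a + strand prey points away from the bait.

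Within S epsilon the junctions spread over chr12:114512393-114515149, a span of 2757 bp. Those of IgH B cells thickened toward its upper end, while c-myc B cells had most in the third of the bins below. Only 4 unlabelled junctions lay within 5 kb outside this span, the nearest 278 bp below it. In bins of 500 bp from the lower end, IgH B cells had 4, 4, 8, 8, 20 and 11 junctions and c-myc B cells had 0, 1, 10, 7, 8 and 4, the last bin being the shorter rest of the span. Without replicate 14 the c-myc counts were 0, 0, 7, 4, 4 and 1. The fifth bin held 36.4% of IgH B-cell junctions, and 3 of the 4 in the lowest bin came from replicate 19. The T-cell junctions lay at 114514580, 114514617 and 114515130, all in the upper 2 bins. Median positions were 114514133, 114514631 and 114514527.5 in IgH B cells and 114514404.5, 114514089 and 114513838 in c-myc B cells. The groups overlapped, and their means differed by 320 bp (exact permutation p = 0.2, adjusted p = 0.344). The SD over libraries was 263 bp in IgH B cells and 284 bp in c-myc B cells. The difference was 467 bp without c-myc replicate 14 and 183.75 to 468.75 bp without single libraries. With 3 against 3 libraries no p under 0.1 was possible, and only the median was tested. The lowest 2 bins held 8 of 55 IgH B-cell junctions and 1 of 30 in c-myc B cells, a difference that was not tested.

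**Figure D4:**
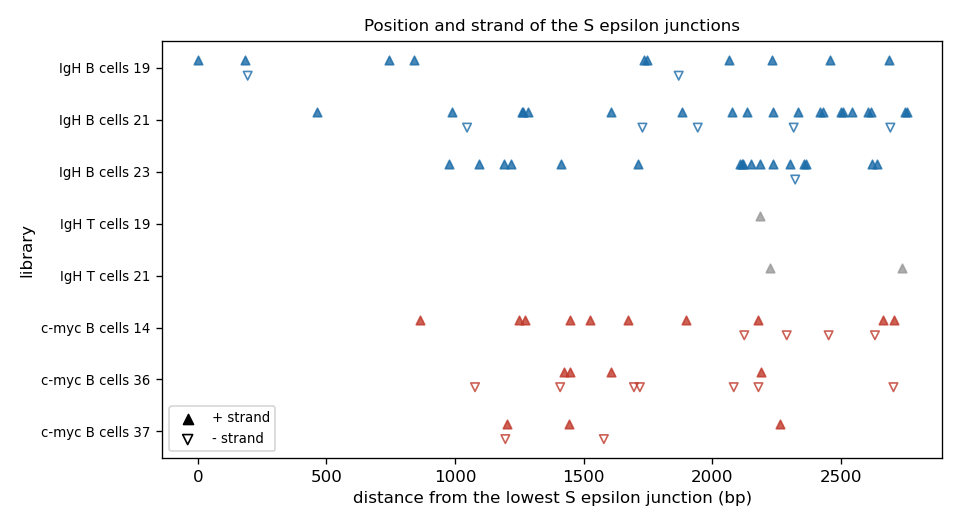
Position of each S epsilon junction in bp from the lowest one, by library, with + and - strand marked. IgH B cells are mostly + strand along the whole span, c-myc B cells are mixed, and no c-myc junction lies in the lowest 500 bp.

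The stretch of 150 bp with the most junctions, chr12:114514482-114514631, held 15 of the 88, or 17.0% in 5.44% of the span. It was picked for its count, which is thus a description. They came from 7 libraries, with 9 from IgH B cells, 4 from c-myc B cells and 2 from T cells, and 13 were on the + strand. The stretch is printed on the + strand with its 6 AGCT in capitals, since junctions were densest there.
Densest stretch of S epsilon, + strand: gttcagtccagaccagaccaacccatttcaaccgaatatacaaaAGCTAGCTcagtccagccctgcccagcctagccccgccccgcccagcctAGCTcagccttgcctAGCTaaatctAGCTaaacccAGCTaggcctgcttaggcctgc
The IgH B-cell prey of replicate 23 printed first starts inside it, shortly before the doubled AGCT.

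The preys covered 2696 of 2756 bases between the outermost S epsilon junction points, or 97.8%, with 0 conflicts between libraries. These letters hold 90 AGCT, or 3.34 per 100 bases, and on the + strand 34.8% C, 18.1% G, 25.6% A and 21.5% T. AGCT reads the same on both strands. In the 6 bins its density was 1.14, 3.6, 5, 3.2, 3.6 and 3.13 per 100 bases, lowest in the bin with the fewest junctions and highest in the third bin, where c-myc B cells had most. IgH B cells had most in the fifth bin, so that junction counts and AGCT density did not share an order in both groups. An AGCT began or ended within 2 bases of the junction in 20 of 53 IgH B-cell junctions (37.7%), 15 of 30 c-myc B-cell junctions (50%; 9 of 16 without replicate 14) and 1 of 3 T-cell junctions, against 749 of 2680 boundaries between neighbouring bases of the region (27.9%). The first 30 prey bases held AGCT in 54 of 85 S epsilon junctions with 30 gapless bases (63.5%, 95% Wilson interval 52.9 to 73.0). That share was 64% at S gamma 3, 70.3% at S mu, 88% at trans Smu (22 of 25), 12.2% on other chromosomes (198 of 1629) and 15.5% over all junctions. The label Sg1 covers the IgH bait itself, so its 17.0% mixes junctions beside the bait with switch joins. In c-myc B cells alone the share was 68.97% at S epsilon (20 of 29, 95% Wilson interval 50.8 to 82.7), 42.4% at S gamma 1 (42 of 99, 33.2 to 52.3) and 76.2% at S mu (64 of 84, 66.1 to 84.0). Without replicate 14 these were 75%, 41.8% and 77.8%. The differences between regions were not tested. A match is a description of the letters and not of where AID acted.

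**Figure D5:**
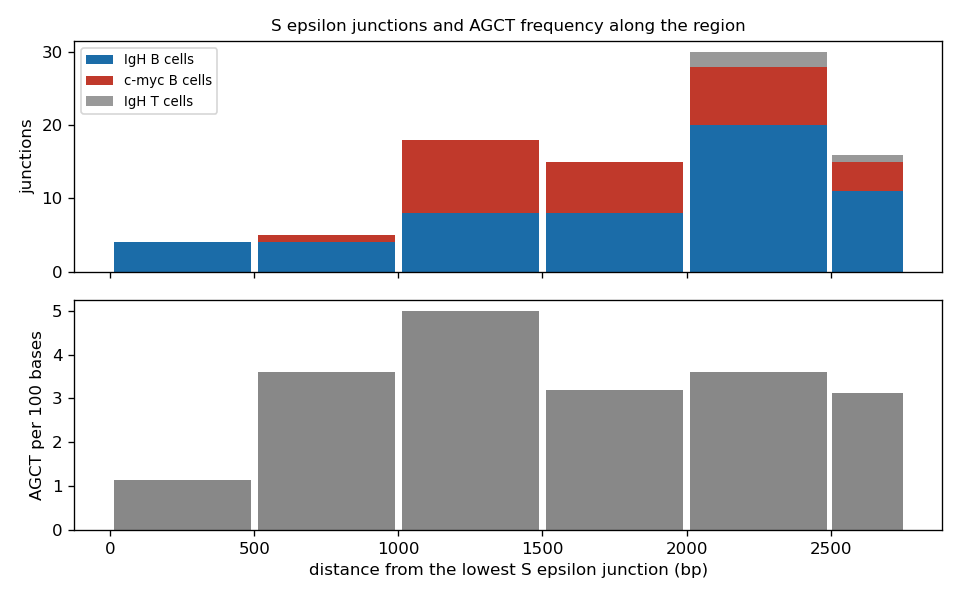
Number of S epsilon junctions, stacked by group (upper bars), and AGCT per 100 bases (lower bars), in bins of 500 bp from the lowest junction with a shorter last bin. The lowest bin has 1.14 AGCT per 100 bases and 4 junctions in all, the third bin has the highest density, and the fifth has the most IgH B-cell junctions.

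The ends were joined in several ways. In IgH B cells the end of the bait was found in 54 of 55 S epsilon reads. Bait and prey shared overlapping bases, up to 4, in 20 (37.04%), met without a base between in 12 (22.2%), and were separated by 1 to 9 bases in 10 (18.5%) and by 10 or more in 12 (22.2%). Of these 12, 6 held cassette sequence between bait and S epsilon and 6 did not. The overlapping share was 33.3, 20.8 and 61.1% in replicates 19, 21 and 23, highest in replicate 23. With the libraries pooled, joins to other chromosomes shared bases more often, in 101 of 168 (60.1%), with overlaps of up to 10 bases, and S gamma 3 joins in 21 of 54 (38.9%). This difference between S epsilon and other chromosomes was not tested or split by library, and S epsilon in replicate 23, at 61.1%, did not lie below the pooled share. In c-myc B cells 12 of 30 S epsilon joins had no base between, 7 had 1 to 9 and 11 had 10 or more, all 11 with cassette sequence. Replicate 14 held 5, 5 and 4 of these. No S epsilon, S alpha, S mu, S gamma 1 or other-chromosome read of c-myc B cells showed overlapping bases, the cause was not tested, and these values are not compared with those of IgH.

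S alpha was a rare partner, seen at the c-myc break alone. Replicate 36 held 2 of 2850 junctions (0.0702%), replicate 37 1 of 878 (0.114%) and replicate 14 0 of 2918, a mean of 0.0614% ± 0.0575 (SD, n = 3), or 0.0920% without replicate 14. IgH B cells held 0 of 2531, which allows up to 0.119%, IgH T cells 0 of 4347 (0.0690%) and fibroblasts 0 of 2931 (0.102%). The limits of IgH B cells and of fibroblasts lie above the share of c-myc B cells, so that an equal share was not detectable in either at this depth. The c-myc B cells differed from fibroblasts by 0.0614 points (exact permutation p = 0.286, adjusted p = 0.349). IgH B cells differed from c-myc B cells by -0.0614 points (exact permutation p = 0.4, adjusted p = 0.44). With so few junctions these tests cannot tell an equal share from a different one. Between IgH B and T cells, both at 0, no test could be made. Without replicate 14 the differences were 0.0920 points (exact permutation p = 0.133) and -0.0920 points (exact permutation p = 0.2). At c-myc S epsilon outnumbered S alpha by 30 to 3, or 16 to 3 without replicate 14. The S alpha junctions lay at 114499933 and 114500634 on the - strand and at 114502660 on the + strand, 76.4 kb below the IgH bait in the median.

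One S alpha read held a further switch sequence. In replicate 36 at 114500634, 39 bases stand between the bait and the S alpha prey printed above, with AGCT in capitals.
Bases between bait and S alpha, c-myc B cells replicate 36: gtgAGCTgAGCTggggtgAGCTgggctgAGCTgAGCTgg
They lie within 1 edit of a prey stretch labelled S mu (78 compared) and within 1 of one labelled trans Smu (25), against 4 for S epsilon (66), 9 for S alpha (2) and 12 for S gamma 1 and S gamma 3. The read thus shows c-myc, then S mu-like letters, then S alpha. It is a single read, and switch repeats resemble each other. Whether its prey, 1 of the 3 S alpha junctions, is rightly placed at S alpha was not tested.

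Some S epsilon reads may not be separate events. No position and strand repeated within a library, but 11 of the 91 junctions fell into 5 sets with the same strand and far prey end. In 3 sets the junctions came from 1 library, namely IgH B-cell replicate 21 in 2 sets and c-myc replicate 14 in 1, where shared ends can also follow from the GG ends. A further set joins c-myc B-cell replicates 14 and 36, at 114513839 and 114513840, and the last joins IgH B-cell replicate 23 with T-cell replicate 19, at 114514578 and 114514580. The preys of the last set are printed because 1 of the 3 T-cell junctions belongs to it.
S epsilon, IgH B cells replicate 23, + strand, chr12:114514578-114514628: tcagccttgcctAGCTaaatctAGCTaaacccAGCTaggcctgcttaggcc
S epsilon, IgH T cells replicate 19, + strand, chr12:114514580-114514628: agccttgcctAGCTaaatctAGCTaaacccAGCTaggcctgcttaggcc
The reads behind them differ by 7 edits. With 1 junction per strand and far end counted in each library, IgH B cells exceeded T cells by 2.70 points and c-myc B cells by 2.00 points. Relative to its size, the difference of c-myc B cells from fibroblasts moved most, from 0.478 to 0.780 points. In points, that of IgH B cells from T cells moved more, from 2.37 to 2.70. All junctions of a library are reduced in this count, so that shares can rise.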

How the data were processed

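The deposited tables hold 1 line per junction read with prey position, strand, read sequence and gene label, per the file headers. The authors deposited an alignment score with each line, which was not used here as a measure. The build was mm9, per the submitters' processing notes; what aligner and filters were used is not given in the sources used here. No mm9 genome was at hand, so reference letters come from the deposited prey sequences. The members, region lists and comparisons were chosen with earlier results of these data known. The text names both members, the other labelled switch regions, the 3 labels most like S epsilon, S epsilon junctions nearest the group medians and every S alpha junction.

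Lines were counted as deposited and given as percent of a library, with positions counted from 1 at the first prey base. No header states how the deposited starts are counted; they were taken as counted from 0, since length equals end minus start in all 69 gapless lines near S epsilon, and every position would shift by 1 if this were wrong. The bait and partner peaks are the most frequent junction positions at least 20 kb apart, with libraries weighted equally. Group means were compared by exact permutation tests, and paired values by exact sign-flip tests, two-sided, with Benjamini-Hochberg adjustment over 11 tests. None could reach 0.05. Steps were tested on simulated data. Intervals are at 95 percent (scipy 1.17.1), and limits for 0 come from 3 counts. IgH B and T libraries with the same number deviated together over 29 windows (Pearson r = 0.636, 0.768 and 0.770), so these numbers pair the samples; the numbers come from the labels. Alternatives counted 1 junction per position and strand or far end, left out break windows, asked for 50 aligned bases, left out each library, compared within runs, or used the pairs.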

Additional observations from a re-analysis of the deposited data

How the results depend on the processing

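Of 145 alternative values for 13 results, 144 kept their direction or, for the described + strand share, stayed within the SD of the libraries. No test here could pass 0.05, so that the side of the threshold was not judged. The count includes 15 values of S alpha between IgH B and T cells, which were 0 throughout. Leaving out switch junctions with a further label left every value as it was. The 1 that turned was S epsilon minus S gamma 3 in IgH B cells, from 0.581 to -0.681 points without replicate 23, while without replicate 21 it was 1.50. With the replicate block the difference between IgH B and T cells stayed at 2.37 points for S epsilon (p = 0.25 by an exact sign-flip test, the lowest that 3 pairs allow). For S alpha it stayed at 0, where no test could be made. Without single libraries it was 1.71 to 2.93 points, the c-myc B-cell difference from fibroblasts 0.433 to 0.525, and that between the baits 1.29 to 2.51. Counting 1 junction per shared far end, which raised the c-myc B-cell difference from fibroblasts to 0.780, and c-myc counts without replicate 14 were added after seeing the data. Depth limits S alpha, with 3 junctions, and T-cell S epsilon, with 3.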
